A study of Homo sapiens with 9 samples.

Results

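The tubulin isotype genes are the genes for the α- and β-tubulin chains that pair into the building block of microtubules. The group described here is 10 genes, 4 for α-tubulin (TUBA1A, TUBA1B, TUBA1C, TUBA4A) and 6 for β-tubulin (TUBB, TUBB2A, TUBB2B, TUBB3, TUBB4B, TUBB6), taken by symbol from the 61487 gene identifiers in the count tables. All 10 passed the filter on low counts, as did 17806 genes in all. Transcripts were measured by RNA-seq of total RNA from SH-SY5Y cells, an established human neuroblastoma line with traits of immature sympathetic neurons. Every group was this same line, kept for 72 h in serum-containing medium with vehicle, 10 µM citrinin or 20 µM citrinin, and each group held 3 libraries numbered 1 to 3. Citrinin is a mycotoxin of Penicillium, Aspergillus and Monascus moulds, and the study asked how it changes the transcripts of neuron-like cells. The labels do not say whether the 3 libraries of a group came from separate cultures, so the p-values measure the spread between these libraries, which can be partly technical.

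Vertebrates carry several α- and β-tubulin genes whose proteins differ mainly in their tails, and neurons express some of them much more than other cells do. Citrinin has been reported to disturb microtubules in other cell types. Cells also adjust tubulin mRNA to the amount of free tubulin: when unpolymerised dimers build up, the protein TTC5 recognises the first amino acids of a nascent tubulin chain on the ribosome and, through SCAPER and the CNOT deadenylase complex, has the mRNA degraded. The level of tubulin mRNA is therefore a quantity of interest in cells given a compound that acts on microtubules.

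The first 30 coding bases of each member are shown because they encode the start of the chain that this pathway reads. They were taken from the principal transcripts of GENCODE 29 on GRCh38, and capitals mark the first 12 bases, the codons of the autoregulated start.
TUBA1A: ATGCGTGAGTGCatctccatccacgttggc
TUBA1B: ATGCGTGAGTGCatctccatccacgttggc
TUBA1C: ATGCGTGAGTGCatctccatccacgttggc
TUBA4A: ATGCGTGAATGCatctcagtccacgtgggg
TUBB: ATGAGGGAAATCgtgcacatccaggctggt
TUBB4B: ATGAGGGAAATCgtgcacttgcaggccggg
TUBB3: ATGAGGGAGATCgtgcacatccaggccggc
TUBB6: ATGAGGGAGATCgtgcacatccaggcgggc
TUBB2A: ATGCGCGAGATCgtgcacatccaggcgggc
TUBB2B: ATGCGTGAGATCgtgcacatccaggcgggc
TUBA1A, TUBA1B and TUBA1C had the same 30 bases, which an intron splits in the genome (chr12:49186807-49188419, minus strand; chr12:49129696-49131300, minus strand; chr12:49265182-49269491, plus strand), as it does in TUBA4A (chr2:219252204-219253858, minus strand). The β stretches were unbroken: chr6:30720507-30720536 (plus strand) in TUBB, chr9:137241361-137241390 (plus strand) in TUBB4B, chr16:89923402-89923431 (plus strand) in TUBB3, chr18:12308293-12308322 (plus strand) in TUBB6, chr6:3157434-3157463 (minus strand) in TUBB2A and chr6:3227514-3227543 (minus strand) in TUBB2B. Among the β genes, TUBB shared its first 12 bases with TUBB4B, and TUBB3 shared them with TUBB6.

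The members are close copies of one another, which bears on how their reads can be told apart. Over the whole coding sequence TUBB2A and TUBB2B were 98.2% identical, with a run of 725 bases without a difference. TUBA1A and TUBA1B were 97.2% identical, TUBA1B and TUBA1C 96.8%, and TUBA1A and TUBA1C 95.9%, while TUBA4A was 84.4% to 85.7% identical to them. The β genes TUBB, TUBB3, TUBB4B and TUBB6 were 80.9% to 87.6% identical to each other. The last 60 coding bases, which hold part of the tail where isotypes differ most, show how near the closest pair is. Capitals mark the base that differs between them.
TUBB2A: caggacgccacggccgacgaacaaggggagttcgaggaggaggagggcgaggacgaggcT
TUBB2B: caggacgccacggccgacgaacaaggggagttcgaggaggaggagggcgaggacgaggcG
TUBB2A and TUBB2B had 1 difference in these 60 bases (chr6:3153866-3153925 and chr6:3224754-3224813, minus strand). Of the 100-base windows along a principal transcript, 56.4% were also present in the transcript of another gene for TUBB2A and 46.2% for TUBB2B, against 4.49% for TUBB4B and 0.0% for TUBB6. The share was 89.0% for TUBB3, 71.1% for TUBA1B, 29.6% for TUBA1C, 27.4% for TUBA4A, 22.3% for TUBA1A and 20.4% for TUBB. It also counts windows in genes that overlap a member at the same place, such as STK16 for TUBA4A. Reads that map to several places are not in the counts, so the values of TUBB2A and TUBB2B are uncertain in level. TUBA1A, TUBA1B and TUBA1C share windows with one another and have the same limit, to an extent not measured. Known tubulin pseudogenes took little of what was counted: 52 of them together held 149 to 225 reads in a library, 0.317% to 0.511% of the members' reads. Reads that match a pseudogene and a member equally well are not in these counts, so their number is not known.

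The libraries do not mark strand, and where a member lies across another gene the joint count of both strands drops the reads they share. TUBA1B, an α gene active in most dividing cells, lies on chromosome 12 (ENSG00000123416, chr12:49127782-49131397, minus strand), and 72.6% of its principal transcript lies inside exons of TUBA1B-AS1 on the other strand. Its joint count was 12.1% to 17.3% of the sum of the 2 strand columns. TUBA1B-AS1 itself kept 8 to 21 joint reads in a library, while 14493 to 19873 reads of TUBA1B were set apart. TUBB, the main β gene of many cell types (ENSG00000196230, chr6:30720201-30725426, plus strand), overlaps ENSG00000272540 on the other strand, and its joint count was 53.3% to 61.7% of the strand sum.

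TUBA1C, another broadly expressed α gene (ENSG00000167553, chr12:49188736-49274603, plus strand), had 31 to 108 joint reads in a library, 1.12% to 4.64% of its strand sum. The 2221 to 3750 reads set apart from it matched, library by library, those set apart from TUBA1A (97.4% to 99.5% of them), with which it shares 490 exon bases. Its strand sum is thus made almost wholly of reads on bases shared with TUBA1A, and neither measure gives a usable level for it. TUBA1A, the α gene typical of neurons (ENSG00000167552, chr12:49184796-49189324, minus strand), lost less and kept 78.7% to 87.3%.

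The following members each kept a larger share of their strand sum in the joint count than TUBB did. TUBB6 (ENSG00000176014, chr18:12307669-12344320, plus strand) kept 67.4% to 74.2%. The 442 to 547 reads set apart from it in a library matched those set apart from AFG3L2. That overlap lies outside the principal transcript of TUBB6 (0.0% of it shared), so which gene these reads came from is not known. TUBA4A (ENSG00000127824, chr2:219249711-219278170, minus strand) kept 82.7% to 91.4%, and TUBB4B (ENSG00000188229, chr9:137241213-137243707, plus strand) 90.9% to 93.5%. TUBB2A (ENSG00000137267, chr6:3153669-3157526, minus strand) and TUBB2B (ENSG00000137285, chr6:3224261-3231730, minus strand) kept at least 95.5% and 99.6%.

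TUBB3, the class III β-tubulin used as a neuronal marker (ENSG00000258947, chr16:89921392-89938761, plus strand), is a different case. A read-through gene on the same strand, ENSG00000198211, covers 89.5% of its principal transcript, so shared reads are lost from every column. ENSG00000198211 held 0 reads in all 9 libraries, and TUBB3 held 56 to 127. The TUBB3 values below therefore come from exon bases it does not share, 2846 of 4430 over all its exons but 185 of the principal transcript, and say little about its level.

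**Figure D1:**
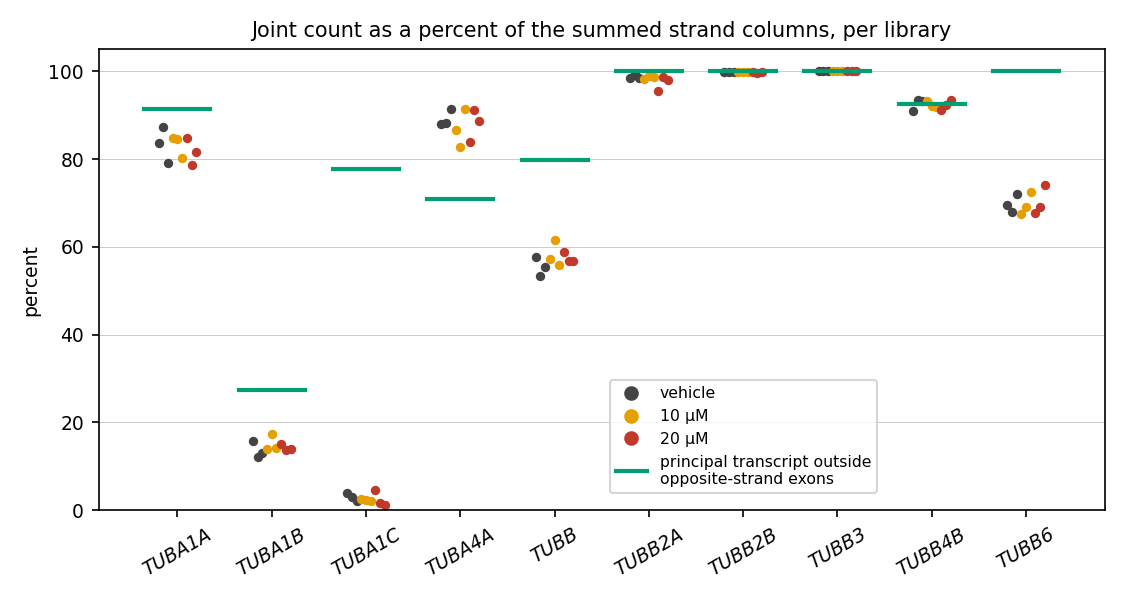
Joint count as a percent of the summed strand columns (y axis) for each member and library, coloured by dose, with a green line for the share of the principal transcript outside exons on the opposite strand. TUBA1B (12.1% to 17.3%) and TUBA1C (1.12% to 4.64%) stand far below the other members, and the doses are mixed within each member.

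The libraries held 15678443 to 19604367 reads assigned to genes, of which the 10 members took 0.212% to 0.292%. Values are given in CPM, a count scaled to its library total after TMM adjustment. Levels of different genes are compared per kilobase (kb), and because of the overlaps 2 scales are given. They are joint CPM per kb of all exons of the gene, and strand-sum CPM per kb of the principal transcript. The strand sum counts overlap reads for both genes and so can be too high. It also leaves out reads that map to several places and, for TUBB3, reads shared on the same strand.

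TUBB stood highest in vehicle-treated cells on both scales, at 366 ± 21.9 joint CPM per kb and 732 ± 38.4 strand-sum CPM per kb (SD, n = 3). On the joint scale TUBA1A followed at 239 ± 25.7, then TUBB4B, a β gene of many tissues, at 114 ± 11.5, TUBB2B at 66.8 ± 9.29, TUBA1B at 42.0 ± 5.42, TUBB6 at 16.1 ± 1.13 and TUBB2A at 12.9 ± 2.47 joint CPM per kb. TUBA4A, an α gene of brain, muscle and platelets, was at 2.52 ± 0.58, TUBB3 at 1.07 ± 0.31 and TUBA1C at 1.04 ± 0.21 joint CPM per kb. Among neighbours in this order, the vehicle libraries overlapped for TUBB6 and TUBB2A and for TUBB3 and TUBA1C, and did not overlap for the other pairs.

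On the strand-sum scale TUBA1B moved to the second place, at 598 ± 84.7 CPM per kb in vehicle-treated cells, and its libraries overlapped those of TUBB. TUBA1A was at 456 ± 33.5, TUBB4B at 140.2 ± 11.7, TUBB2B at 63.9 ± 8.74 and TUBB6 at 40.5 ± 2.05 strand-sum CPM per kb. The TUBB6 value includes the reads on the overlap with AFG3L2, outside its principal transcript. TUBB2A was at 12.5 ± 2.29, TUBA4A at 4.68 ± 0.98 and TUBB3 at 2.35 ± 0.69 strand-sum CPM per kb. Leaving TUBA1C aside, no neighbours in this order overlapped other than TUBB and TUBA1B. The order of TUBA1A and TUBA1B thus depends on how overlap reads are counted. By strand sum the cells carried mainly TUBB, TUBA1B and TUBA1A transcripts with a smaller amount of TUBB4B, and on both scales TUBB2B stood above its near-copy TUBB2A.

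Most other α- and β-tubulin genes had few reads. Of 8 further α and β genes, 3 passed the filter, and TUBB4A, a β gene of brain and oligodendrocytes, was the one with more than a few reads, at 194 to 285 reads in a library. TUBAL3 had 0 reads in every library, where 3 reads equal 0.153 to 0.191 CPM.

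**Figure D2:**
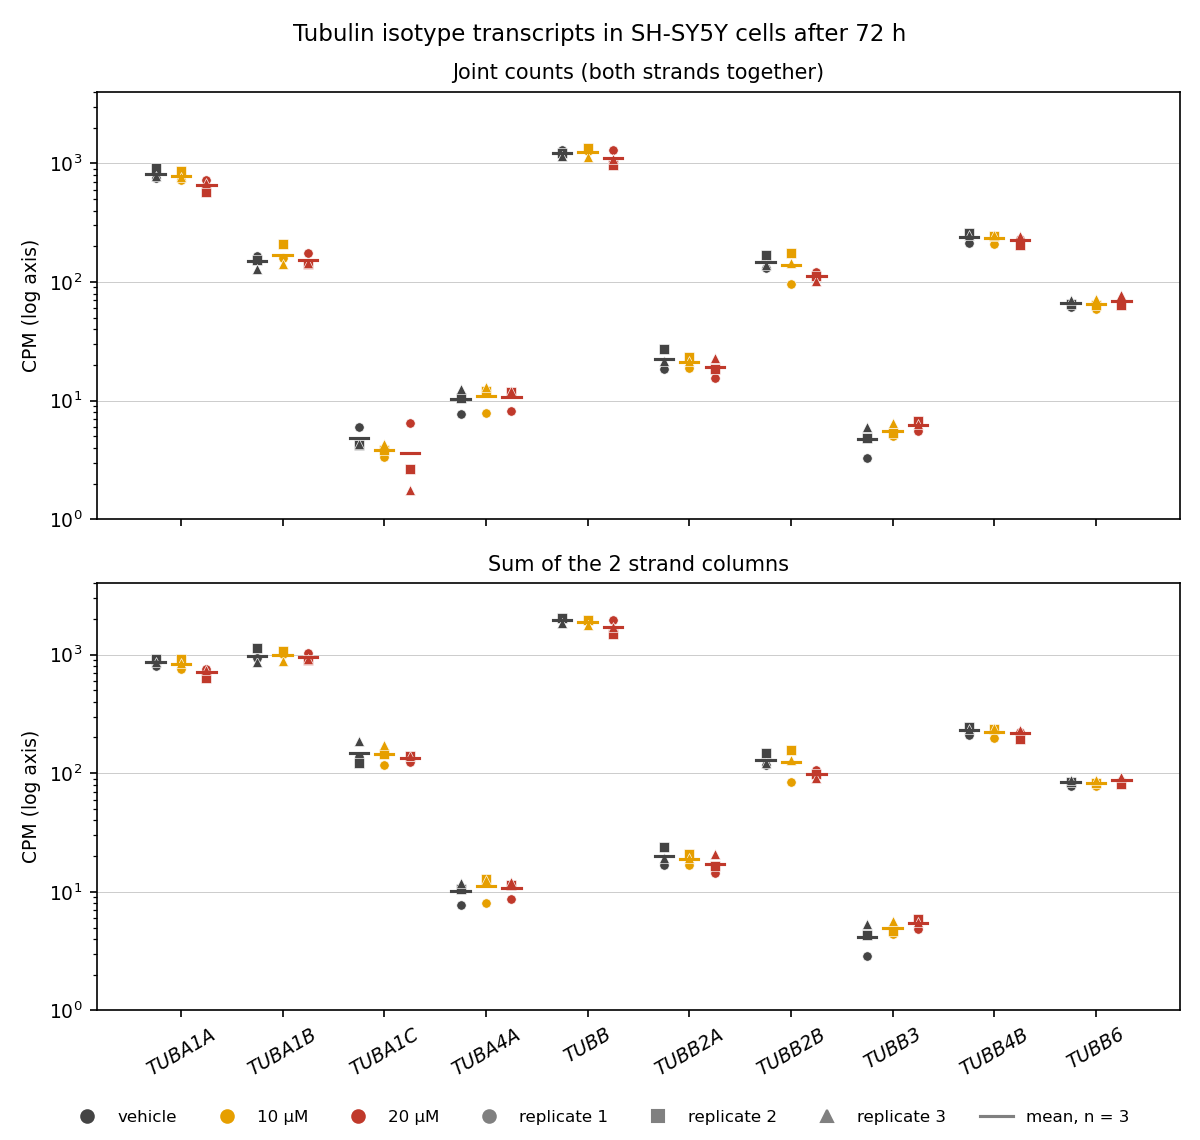
CPM of each member in every library on a log axis, joint counts above and summed strand columns below, in dose order from vehicle to 20 µM, with points for libraries and bars for the mean of 3. TUBB leads in both panels, and TUBA1B and TUBA1C stand far higher in the lower panel. The libraries at 20 µM and those with vehicle overlap for 8 of 10 members.

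After 20 µM citrinin, against vehicle, no tubulin isotype gene passed the test in a fit that kept all libraries of the groups compared: edgeR, DESeq2 and limma-voom with and without the replicate number as a block, and edgeR with other scaling, with no filter on low counts and with summed strands. TUBA1A, TUBB and TUBB2B were lower in each of the 3 same-numbered pairs of libraries, TUBB3 was higher in each, and TUBA1B, TUBA4A, TUBB4B and TUBB6 lay within 0.10 of 0 on the log2 scale. In these bulk libraries, fewer cells of a type and less RNA per cell cannot be told apart.

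TUBA1A had joint values of 722, 570.2 and 685 CPM in 20 µM replicates 1, 2 and 3, against 755, 918 and 777 CPM in vehicle replicates 1, 2 and 3. All 3 libraries at 20 µM lay below all 3 vehicle libraries, with the widest gap in replicate 2. The means were 659 ± 79.2 CPM at 20 µM and 817 ± 88.0 CPM in vehicle (SD, n = 3 each). The log2 fold change was -0.31 ± 0.12 (SE) with a 95% interval of -0.58 to -0.04 and an unadjusted p of 0.0307, and edgeR's quasi-likelihood test gave a Benjamini-Hochberg adjusted p of 1.0. With the replicate number as a block it was -0.30 ± 0.14 (adjusted p = 0.453).

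The strand sum gave the same picture for TUBA1A, with 754, 638 and 740.3 CPM at 20 µM, against 797, 924 and 863 CPM in vehicle. Its log2 fold change in the blocked strand-sum fit was -0.27 ± 0.08, with a 95% interval of -0.44 to -0.11, an unadjusted p of 0.00353 and an adjusted p of 0.106.

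TUBB had joint values of 1289.6, 963 and 1095 CPM in 20 µM replicates 1, 2 and 3, against 1304, 1227 and 1156 CPM in vehicle replicates 1, 2 and 3. Replicates 2 and 3 at 20 µM lay below every vehicle library, and replicate 1 lay among the vehicle libraries. The means were 1116 ± 164 CPM at 20 µM and 1229 ± 73.6 CPM in vehicle. The log2 fold change was -0.14 ± 0.12 without the block and -0.14 ± 0.08 with it (edgeR adjusted p = 1.0 and 0.474, and 0.075 with the block and no filter on low counts). The blocked strand-sum fit gave -0.20 ± 0.06, with a 95% interval of -0.32 to -0.07 and an adjusted p of 0.121.

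TUBB2B, a β gene of developing neurons, had joint values of 121, 112 and 103 CPM in 20 µM replicates 1, 2 and 3, against 131, 169.7 and 139 CPM in vehicle replicates 1, 2 and 3. The groups did not overlap. The means were 112 ± 9.07 CPM at 20 µM and 147 ± 20.4 CPM in vehicle. Its log2 fold change was -0.39 ± 0.20 without the block and -0.37 ± 0.21 with it (edgeR adjusted p = 1.0 and 0.566). This result hung on 1 library: 10 µM replicate 1, which enters the fit through the shared spread, had 95.4 CPM against 176 and 146 CPM in the other 10 µM libraries. Without it the blocked log2 fold change was -0.39 with an adjusted p of 0.00176, and without all 3 libraries numbered 1 it was -0.52 with an adjusted p of 1.61e-06.

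TUBB2A, the near-copy of TUBB2B, averaged 19.0 ± 3.80 CPM at 20 µM and 22.4 ± 4.27 CPM in vehicle, with overlapping libraries. It was lower in 2 of 3 pairs, and the blocked log2 fold change was -0.23 ± 0.10 (unadjusted p = 0.0319, edgeR adjusted p = 0.309). TUBB4B averaged 226 ± 19.6 CPM at 20 µM and 241 ± 24.3 CPM in vehicle, with a blocked log2 fold change of -0.09 ± 0.07 (adjusted p = 0.62). TUBB6, a β gene of many non-neuronal tissues, averaged 69.4 ± 7.82 CPM at 20 µM and 66.3 ± 4.65 CPM in vehicle, with a blocked log2 fold change of 0.06 ± 0.06 (adjusted p = 0.698).

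TUBB3 had 5.54, 6.75 and 6.33 CPM in 20 µM replicates 1, 2 and 3, against 3.27, 4.88 and 6.04 CPM in vehicle replicates 1, 2 and 3, from 56 to 118 reads in each. It was higher in 3 of 3 pairs, by 0.76, 0.47 and 0.07 on the log2 scale, and the groups overlapped. The blocked log2 fold change was 0.41 ± 0.17 with a 95% interval of 0.06 to 0.75 (unadjusted p = 0.0234, edgeR adjusted p = 0.27), and without the block it was 0.39 ± 0.23 (adjusted p = 1.0).

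TUBA1B averaged 154 ± 19.5 joint CPM at 20 µM and 150.04 ± 19.4 joint CPM in vehicle, and by strand sum 948 ± 67.0 CPM at 20 µM and 972 ± 138 CPM in vehicle. Its log2 fold change was 0.04 ± 0.15 in the blocked joint fit and -0.03 ± 0.06 in the blocked strand-sum fit, whose 95% interval ran from -0.16 to 0.11. TUBA4A averaged 10.7 ± 2.17 CPM at 20 µM and 10.3 ± 2.35 CPM in vehicle, with a blocked log2 fold change of 0.06 ± 0.12. TUBA1C had 6.50, 2.63 and 1.77 joint CPM at 20 µM, against 5.96, 4.25 and 4.28 CPM in vehicle, and a blocked log2 fold change of -0.47 ± 0.30 (edgeR adjusted p = 0.563). For TUBA1C the 20 µM replicate 1 library decided the value: without it the blocked log2 fold change was -1.09 with an adjusted p of 0.0078, on 31 to 102 joint reads per library.

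Set against the background, 0 of 10 members passed at an adjusted p below 0.05 in edgeR, where 0.0% of 17806 genes passed without the block and 2.21% with it, and DESeq2 and limma-voom also called 0 members. At an unadjusted p below 0.05 there was 1 member without the block, beside 2.17% of all genes, and there were 2 with it, beside 13.1%. In the blocked strand-sum fit 0 members passed beside 2.02% of genes, and 3 had an unadjusted p below 0.05 beside 12.7%. The groups did not overlap for 2 of 10 members, TUBA1A and TUBB2B, beside 6.75% of all genes in joint counts, and for the same 2 beside 6.95% in strand sums. The median log2 fold change of the 10 members was -0.12 with the block, beside -0.00 over all genes tested, and 6 of 10 were negative, beside 50.6% of all genes. With the block, 9 of 10 members had a 95% interval within 2-fold in either direction, TUBA1C being the exception, and 6 of 10 within 1.5-fold.

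Calls appeared when single libraries were left out of the blocked fit. Besides TUBB2B and TUBA1C, TUBB passed without 10 µM replicate 2, with a log2 fold change of -0.15 and an adjusted p of 0.0489. TUBB4B passed without 20 µM replicate 1, at -0.19 with an adjusted p of 0.0303. Without all libraries numbered 1, TUBA1C passed at -0.96 with an adjusted p of 0.0474.

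**Figure D3:**
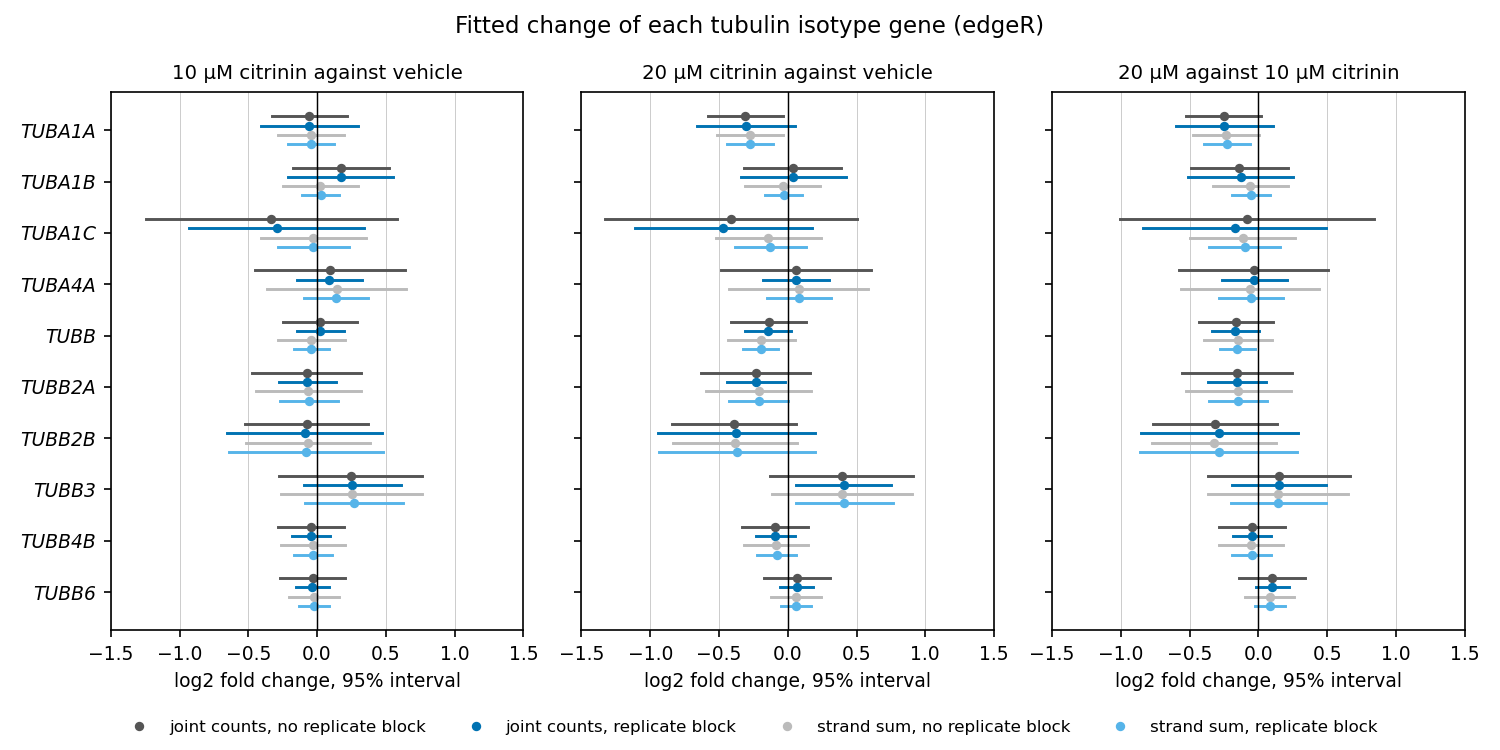
Log2 fold change with its 95% interval for each member in the 3 comparisons, from edgeR with joint counts or summed strand columns, each with and without the replicate number as a block; right of 0 is higher in the group named first. At 20 µM against vehicle 3 of 10 intervals exclude 0 in the blocked strand-sum fit, among them those of TUBA1A and TUBB, which lie below 0. In the blocked joint-count fit 2 exclude 0, TUBB2A below it and TUBB3 above it. The blocked joint-count intervals of TUBA1C and TUBB2B are the widest of the 10.

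After 10 µM citrinin, against vehicle, no member passed, and the log2 fold changes of TUBA1A, TUBB and TUBB2B lay nearer 0 than at 20 µM. TUBA1A had 719, 866 and 771 joint CPM at 10 µM, against 755, 918 and 777 CPM in vehicle. It was lower in 3 of 3 pairs by at most 0.08 on the log2 scale, and the groups overlapped. Its blocked log2 fold change was -0.06 ± 0.14. TUBB averaged 1249 ± 106 CPM at 10 µM and 1229 ± 73.6 CPM in vehicle, with a blocked log2 fold change of 0.02 ± 0.08, which was -0.04 ± 0.06 in the strand-sum fit.

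The remaining members overlapped between the groups as well. TUBB2B averaged 139 ± 40.8 CPM at 10 µM and 147 ± 20.4 CPM in vehicle, with replicate 1 the lowest at 10 µM. Its blocked log2 fold change was -0.09 ± 0.21. TUBB4B averaged 234 ± 21.4 CPM at 10 µM and 241 ± 24.3 CPM in vehicle, and TUBA1B 169 ± 34.8 CPM at 10 µM and 150.04 ± 19.4 CPM in vehicle. TUBB3 was higher in 3 of 3 pairs, at 5.60 ± 0.78 CPM with 10 µM and 4.73 ± 1.39 CPM with vehicle (blocked log2 fold change 0.26 ± 0.17), and TUBA4A was higher in 3 of 3 pairs by 0.02 to 0.18. Blocked log2 fold changes of the members ran from -0.29 (TUBA1C) to 0.26, and every edgeR adjusted p was 1.0. With the block 0.0337% of 17806 genes passed, and 0.0% without it. The groups overlapped for 10 of 10 members, beside 4.01% of genes without overlap in joint counts and 4.27% in strand sums. No member reached an unadjusted p below 0.05, beside 0.646% of genes without the block and 3.59% with it. In the blocked strand-sum fit 0.0347% of genes passed.

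Between the doses, 20 µM against 10 µM, no member passed after the filter on low counts, and 8 of 10 log2 fold changes were negative, beside 50.5% of all genes. TUBA1A averaged 659 ± 79.2 CPM at 20 µM and 785 ± 74.5 CPM at 10 µM, with a blocked log2 fold change of -0.25 ± 0.14 (edgeR adjusted p = 0.717), and -0.23 ± 0.08 in the strand-sum fit (adjusted p = 0.344). TUBB averaged 1116 ± 164 CPM at 20 µM and 1249 ± 106 CPM at 10 µM, with a blocked log2 fold change of -0.17 ± 0.08 (adjusted p = 0.567). With the block and no filter TUBB passed, at -0.17 with an adjusted p of 0.0354, the 1 member to do so, beside 0.51% of 36838 genes. In both genes most of this lay in replicate 2, with pairwise log2 differences of -0.60 for TUBA1A and -0.49 for TUBB, against 0.01 and 0.03 in replicate 1 and -0.17 and -0.06 in replicate 3.

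TUBB2B had a blocked log2 fold change of -0.28 ± 0.21 between the doses (edgeR adjusted p = 0.813), with pairs of 0.34, -0.65 and -0.51 in replicates 1, 2 and 3. Without 10 µM replicate 1 it was -0.51 with an adjusted p of 0.00249, and without all libraries numbered 1 it was -0.58 with an adjusted p of 1.00e-06. TUBB6 was higher in 3 of 3 pairs, at 69.4 ± 7.82 CPM with 20 µM and 64.8 ± 6.49 CPM with 10 µM (blocked log2 fold change 0.10 ± 0.06). The background was 0.444% of genes passed with the block and 0.0% without it. All 10 members overlapped between these groups, beside 4.87% of genes without overlap in joint counts and 5.0% in strand sums. No member had an unadjusted p below 0.05, beside 1.18% of genes without the block and 8.81% with it. In the blocked strand-sum fit 0 members passed beside 0.441% of genes, and TUBA1A and TUBB had an unadjusted p below 0.05, beside 8.72%. The 3 comparisons share libraries, so their values are not independent of each other.

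**Figure D4:**
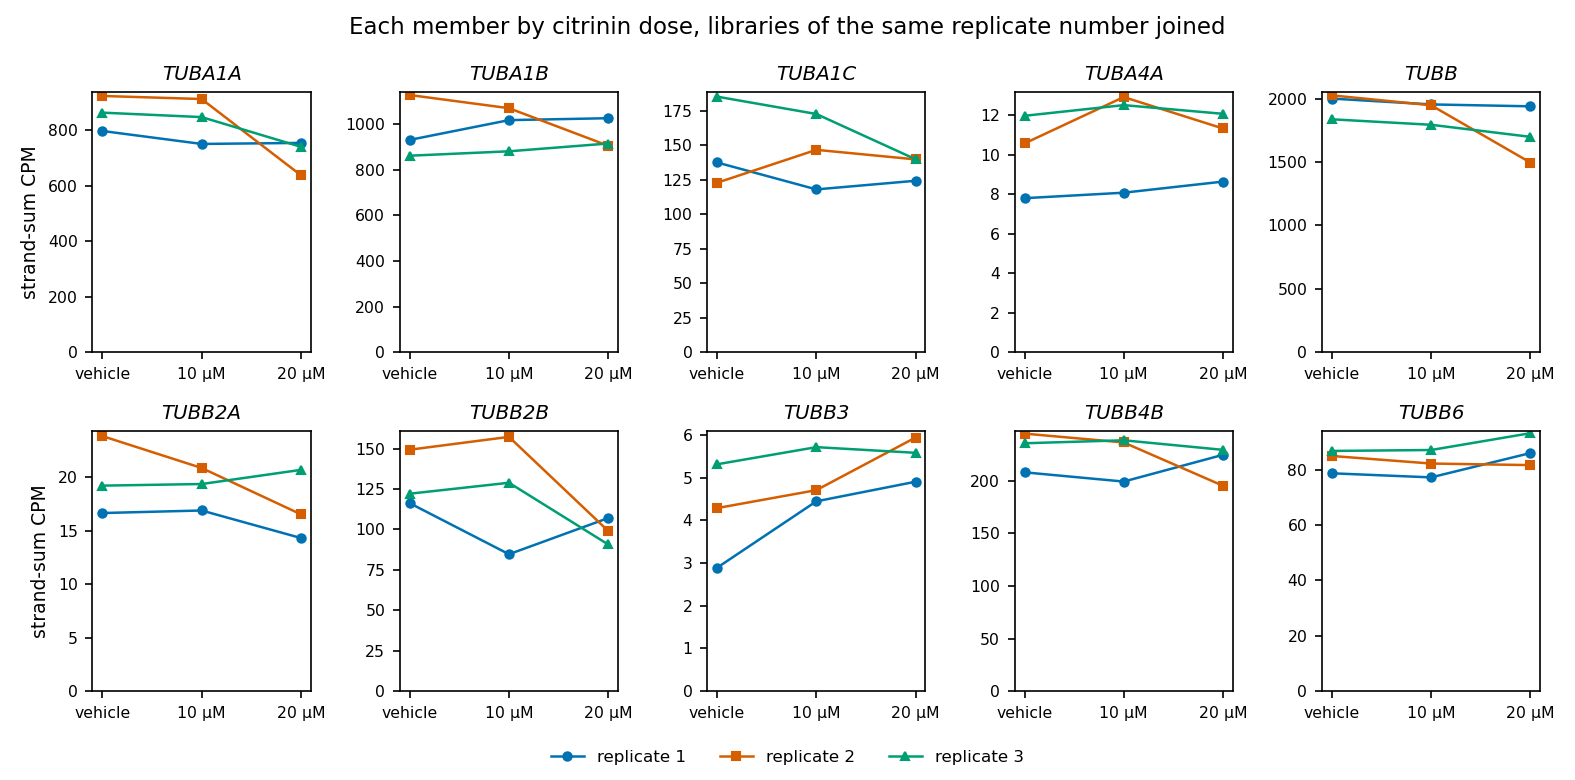
Strand-sum CPM of each member by dose (x axis: vehicle, 10 µM, 20 µM), with the libraries of 1 replicate number joined by a line, each panel on its own linear axis from 0. TUBA1A, TUBB and TUBB2B end lower at 20 µM than in vehicle in all 3 lines, and replicate 2 has the steepest line in TUBA1A and TUBB.

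The 10 members summed to 2692 ± 139 joint CPM in vehicle, 2684 ± 232 at 10 µM and 2376 ± 274 at 20 µM (SD, n = 3 each). The summed values at 20 µM were 2641, 2094 and 2391 CPM in replicates 1, 2 and 3, and in vehicle 2668, 2842 and 2566 CPM, so the groups overlapped. By strand sum, which counts overlap reads for both genes, the pool was 4412 ± 265, 4334 ± 222 and 3939 ± 350.1 CPM at 0, 10 and 20 µM. No p is given for these sums.

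The make-up of the pool is given by strand sum. Its α total includes TUBA1C, whose reads lie almost wholly on bases shared with TUBA1A and are counted for both genes. TUBA1C made up 7.53% ± 2.01 of the α reads in vehicle, 7.36% ± 1.47 at 10 µM and 7.49% ± 0.90 at 20 µM. TUBA1B held 48.7% ± 3.5 of the α reads in vehicle, 49.9% ± 3.84 at 10 µM and 52.5% ± 1.68 at 20 µM, and TUBA1A held 43.3% ± 1.45, 42.2% ± 2.36 and 39.4% ± 1.66. TUBB held 80.7% ± 1.59, 80.7% ± 2.57 and 80.0% ± 1.41 of the β reads, and TUBB4B 9.49% ± 0.83, 9.56% ± 0.99 and 10.2% ± 0.65. TUBB2B held 5.33% ± 0.55 of the β reads in vehicle, 5.24% ± 1.45 at 10 µM and 4.66% ± 0.51 at 20 µM. With TUBA1C left aside, the share of TUBA1A did not overlap between the libraries at 20 µM and those with vehicle, and the other 4 did. In joint counts the TUBA1A share did overlap, at 79.1%, 78.6% and 81.2% of the α reads at 20 µM, against 80.7%, 84.4% and 84.2% in vehicle. The joint counts put TUBA1B at 15.3% ± 2.16 to 18.6% ± 1.29 of the α reads. They leave out the reads set apart with TUBA1B-AS1 and also those shared by TUBA1A and TUBA1C.

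Replicate number was tested in the same fit. In the blocked fit 3 of 10 members differed between replicate numbers, TUBA4A (edgeR adjusted p = 0.000133), TUBB6 (0.00214) and TUBB2A (0.00709), beside 43.3% of all genes tested. Limma-voom with the block called the same 3, beside 43.1% of genes. TUBA4A had 7.77 to 8.19 CPM in the 3 libraries numbered 1, against 10.6 to 11.99 CPM in those numbered 2 and 12.1 to 13.0 CPM in those numbered 3. All 3 libraries numbered 1 lay below the other 6. TUBA1A, TUBB and TUBB2B did not pass this test (adjusted p = 0.892, 0.145 and 0.41). With no filter on low counts TUBB did pass it (edgeR adjusted p = 0.000746), beside 20.9% of 36838 genes, and TUBA1A and TUBB2B did not. In strand sums TUBA1B (adjusted p = 0.024), TUBA4A (0.000492) and TUBB2A (0.0155) passed, beside 42.2% of genes.

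Genes that act with tubulin were tested in the same fits, from lists chosen with earlier results of these data known. At 20 µM against vehicle with the block, 0.848% of all genes rose and 1.36% fell (0.808% and 1.21% in strand sums). Among 12 genes of tubulin autoregulation (TTC5, SCAPER and 10 genes of the CNOT complex), 0 passed at 20 µM against vehicle, and their log2 fold changes ran from -0.07 to 0.10. The smallest p was that of CNOT2, a scaffold subunit, at 85.3 ± 0.90 CPM with 20 µM and 89.6 ± 3.29 CPM with vehicle (blocked edgeR adjusted p = 0.614).

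Among 21 tubulin folding genes (the TBC cofactors, ARL2, the CCT chaperonin and prefoldin), 1 rose and 0 fell at 20 µM against vehicle with the block, with a median log2 fold change of 0.04. PFDN1, a subunit of prefoldin, which hands new actin and tubulin chains to the chaperonin, had 31.7 ± 1.85 CPM at 20 µM and 25.4 ± 0.81 CPM in vehicle. Its libraries did not overlap, and the blocked log2 fold change was 0.32 ± 0.08 (edgeR adjusted p = 0.0195). The call did not hold in strand sums (0.22, adjusted p = 0.0798), nor without 20 µM replicate 2 or 3 or any vehicle replicate (adjusted p from 0.0755 to 0.222), nor without the block.

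Among 21 tested of 22 tubulin modification genes, 1 rose and 1 fell at 20 µM against vehicle with the block. TTLL7, which adds glutamate chains to β-tubulin tails, averaged 91.3 ± 29.3 CPM at 20 µM and 76.3 ± 22.4 CPM in vehicle, with overlapping libraries and a blocked log2 fold change of 0.25 ± 0.06 (edgeR adjusted p = 0.0195). VASH2, a carboxypeptidase that removes the C-terminal tyrosine of α-tubulin, averaged 32.8 ± 8.55 CPM at 20 µM and 40.1 ± 11.4 CPM in vehicle, with a blocked log2 fold change of -0.28 ± 0.07 (adjusted p = 0.0313). Both calls were lost without 10 µM replicate 3, 20 µM replicate 2 or 3, or any vehicle replicate, that of VASH2 also without 20 µM replicate 1. Their adjusted p then ran from 0.0554 to 0.201 for TTLL7 and from 0.066 to 0.353 for VASH2. DESeq2 with the block gave VASH2 an adjusted p of 0.0883.

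In the other lists 0 genes passed at 20 µM against vehicle with the block. Of 4 γ-, δ- and ε-tubulin genes, TUBE1, the centriolar ε-tubulin, had the smallest p, at 34.7 ± 2.61 CPM with 20 µM and 41.1 ± 0.96 CPM with vehicle, without overlap (log2 fold change -0.24 ± 0.07, edgeR adjusted p = 0.0802). Of 9 genes of the γ-tubulin ring complex, which nucleates microtubules, TUBGCP3 was at 49.8 ± 1.95 CPM with 20 µM and 57.5 ± 5.22 CPM with vehicle (adjusted p = 0.0987). Without 10 µM replicate 2 both passed (adjusted p = 0.0328 and 0.0408). Of 8 severing genes, FIGNL1 had the smallest p (adjusted p = 0.412). At 10 µM against vehicle and between the doses, 0 genes of these 7 lists passed with the block, though with no filter on low counts MZT2B, a γ-tubulin complex protein, passed between the doses (log2 fold change -0.60, adjusted p = 0.0415).

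The line's identity markers moved beside these values. All 12 sympathetic neuroblastoma markers were above 1 CPM, and 9 fell at 20 µM against vehicle with the block (7 in strand sums), among them STMN2, itself a regulator of neuronal microtubules, at 553 ± 85.8 CPM with 20 µM and 690.3 ± 134 CPM with vehicle (log2 fold change -0.31 ± 0.05, edgeR adjusted p = 0.000141). The receptor tyrosine kinase RET fell by 0.58 on the log2 scale (adjusted p = 1.25e-05), and the secretory granule proteins CHGA and CHGB fell by 0.40 and 0.31 (adjusted p = 0.000151 and 0.00443). Their summed level was 2594 to 3589 CPM at 20 µM, against 3176 to 3951 CPM in vehicle. Of 12 mesenchymal markers 6 rose with the block (5 rose and 1 fell in strand sums), and 4 were negative, down to -0.26, around a median of 0.12, with summed levels of 5779 to 7956 CPM at 20 µM, against 5226 to 7473 CPM in vehicle. The hyaluronan receptor CD44 rose by 0.44 on the log2 scale (adjusted p = 1.79e-06), the AP-1 factor FOSL1 by 0.65 (0.000291), the Hippo pathway effector YAP1 by 0.32 (0.0116) and the intermediate filament protein VIM by 0.21 (0.0136). For RET, STMN2, CHGA, CHGB, CD44, FOSL1, YAP1 and VIM alike, the libraries at 20 µM and those with vehicle overlapped. RET averaged 211 ± 98.4 CPM at 20 µM and 324 ± 181 CPM in vehicle, and CD44 208 ± 86.0 and 153 ± 63.9 CPM. The VIM call was lost in the blocked strand-sum fit (adjusted p = 0.056), and without 20 µM or 10 µM replicate 3 or any vehicle replicate. That of YAP1 was lost without 20 µM replicate 2 or vehicle replicate 1 or 2, and that of CHGB without 20 µM replicate 3 or vehicle replicate 1 or 3. Without all libraries numbered 3, STMN2, CHGA, CHGB, YAP1 and VIM did not pass, while RET, CD44 and FOSL1 did. At 20 µM against 10 µM, RET, STMN2 and CHGA fell and CD44 and FOSL1 rose with the block, beside 0.264% of genes that fell and 0.18% that rose, and none of these passed without all libraries numbered 3. Without 10 µM replicate 3 RET alone of these 5 passed, and STMN2, CHGA and FOSL1 were lost without 20 µM replicate 2 or 3. At 10 µM against vehicle 0 markers passed, and their summed levels at 10 µM were 3092 to 3803 CPM and 5322 to 7591 CPM. Of 8 Schwann and glial markers SOX10, FOXD3, GFAP and CDH19 were below 1 CPM in every library, CDH19 at 0, and 0 of the 4 tested passed, with the smallest p that of S100B (0.47 ± 0.36, adjusted p = 0.638). Without the block 0 markers of any list passed. Whether the marker shift has a part in the tubulin values was not tested.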

How the data were processed

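The submitters' processing notes name FastQC, cutadapt, STAR and edgeR and the genome build GRCh38, with no versions, and the annotation release is not stated there. The authors deposited raw counts per gene for each library, for both strands together and for each strand. The strand columns were about equal (ratio 1.007 to 1.020), so joint counts were the main values and the summed strand columns an alternative. Reads set apart by STAR (unmapped, multimapping, outside genes, ambiguous) entered neither library sizes nor tests; 76.4% to 78.0% of reads were assigned to genes. The deposited normalized table was not used.

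Symbols were matched for 61474 of 61487 identifiers. Coordinates and sequences are from GENCODE 29 (58312 identifiers), so overlaps with genes outside that release were not seen. Coding sequences were aligned globally with Biopython 1.88. The main test was edgeR's quasi-likelihood test (R 4.3.3, edgeR 4.0.16, robust, TMM, filterByExpr, all 9 libraries, no block), with Benjamini-Hochberg adjustment over 17806 genes at 0.05. Residual degrees of freedom were 6, and 4 with the block. Replicate numbers come from the sample titles. Same-numbered libraries deviated together from their group means (r from 0.457 to 0.685 in 9 pairs, against -0.545 to 0.139 for other pairs), so the numbers were taken to pair the samples and blocked values are given. Alternatives were DESeq2 1.42.0, limma-voom (limma 3.58.1), other scaling, no filter, only the libraries compared, summed strands, and each library left out. The blocked fits with summed strands, other scaling or no filter were chosen after seeing the data. The scripts were tested on simulated counts.

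The members and gene lists were chosen with earlier results of these data known. All members are named. From each other list the genes passing with the block are named (at most 4), or the 1 with the smallest p. Depth was 15678443 to 19604367 gene reads, and floors of 3 reads cover counting error only. Of the coding ends, some are not reported here.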

Additional observations from a re-analysis of the deposited data

How the results depend on the processing

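No member passed in any comparison under another scaling, no filter, DESeq2, limma-voom, only the libraries compared, summed strands or the block, except TUBB between the doses with the replicate block and no filter (-0.17, adjusted p = 0.0354; 1 member called); the cause was not tested. Counts over all genes at 20 µM against vehicle were 0 without the block, 6 with no filter, 11 with DESeq2, and with the block 393 (edgeR), 266 (DESeq2), 381 (limma-voom), 407 (summed strands), 399 (other scaling) and 560 (no filter). At 10 µM against vehicle they were 0 without the block, and with it 6 (edgeR), 6 (DESeq2), 7 (limma-voom), 7 (summed strands), 6 (other scaling) and 23 (no filter). Between the doses they were 0, and with it 79, 68, 77, 89, 79 and 188. Leaving out libraries gave 0 to 1 without the block and 48 to 729 with it at 20 µM against vehicle, 0 without and 0 to 16 with it at 10 µM, and 0 without and 0 to 301 with it between the doses, and the members called from 0 to 2 at 20 µM against vehicle, 0 to 0 at 10 µM and 0 to 1 between the doses. Members differing by replicate number with the block were 3, beside 43.3% of 17806 genes, or 6 with no filter, beside 20.9% of 36838 genes. Those added with no filter were TUBB (edgeR adjusted p = 0.000746), TUBB4B (0.00721) and TUBA1C (0.0101). Summed strands reversed TUBA1B at 20 µM against vehicle (-0.037, and -0.029 with the block) and TUBB at 10 µM (-0.042, and -0.042 with the block); the cause was not tested.

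Leaving out libraries changed the sign of small values. At 20 µM against vehicle the log2 fold changes ran from -0.076 to 0.19 for TUBA1B, -0.11 to 0.22 for TUBA4A, -0.19 to 0.036 for TUBB4B, -0.031 to 0.12 for TUBB6, -0.21 to 0.43 for TUBA3D and -0.18 to 1.24 for S100B. At 10 µM against vehicle they ran from -0.14 to 0.048 for TUBA1A, -0.016 to 0.30 for TUBA1B, -0.62 to 0.13 for TUBA1C, -0.072 to 0.28 for TUBA4A, -0.089 to 0.091 for TUBB, -0.19 to 0.081 for TUBB2A, -0.28 to 0.14 for TUBB2B, -0.12 to 0.034 for TUBB4B, -0.11 to 0.032 for TUBB6, -0.50 to 0.064 for VASH2, -0.39 to 0.16 for CHGB, -0.74 to 0.28 for PRRX1 and -0.83 to 0.37 for S100B. Between the doses they ran from -0.27 to 0.090 for TUBA1B, -0.90 to 0.28 for TUBA1C, -0.22 to 0.12 for TUBA4A, -0.15 to 0.066 for TUBB4B, -0.072 to 0.18 for SCAPER, -0.93 to 0.00052 for RET and -0.030 to 0.63 for CD44. TUBA1A, TUBB, TUBB2A and TUBB2B stayed negative and TUBB3 positive at 20 µM against vehicle. Few counted reads limit TUBA1C and TUBB3, with joint counts of 31 to 108 and 56 to 127 reads in a library. Both overlap other genes. TUBA1C had 3475 of 4631 exon bases free of the overlaps seen, and why so few reads were counted on them was not tested.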

Other observations

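Over the 9 libraries, the genes whose pattern was most like that of the summed members were MTRES1, a mitochondrial RNA-binding factor, SCLT1, a centriole appendage protein, CCNF, the cyclin F of an SCF ubiquitin ligase, CHEK2, the DNA damage checkpoint kinase, and ANO5. Likeness was the root mean square difference between a gene's centred log2 CPM and that of the summed members, among 10495 genes averaging at least 10 CPM. It was 0.0425 for MTRES1, 0.0552 for SCLT1, 0.0617 for CCNF, 0.0646 for CHEK2 and 0.0663 for ANO5, beside a median of 0.189 over the genes compared. A gene with the same value in all 9 libraries would score 0.135, so a score below the median is not by itself a shared pattern. The members are parts of this sum, so their nearness to it is partly built in. TUBB (1229 CPM) and TUBA1A (817 CPM) are the largest parts of the 2692 joint CPM in vehicle. Of the members, TUBB (0.0651) and TUBA1A (0.0740) lay nearest their joint-count sum, then TUBB4B (0.119) and TUBA1B (0.153), the last beyond 0.135. The other members lay beyond that median, from 0.196 (TUBB6) to 0.462 (TUBA1C), so the likeness is to the sum and not to each member. The libraries share depth and replicate number, so this is a description, with no test.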
